A study of Rattus norvegicus with 18 samples.

Results

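The 10 genes described here encode the enzymes that build purine nucleotides from small precursors: Prps1, Prps2, Ppat, Gart, Pfas, Paics, Adsl, Atic, Impdh2 and Gmps. They were chosen by symbol, and all 10 were found among the 13188 genes of the deposited expression table. RNA was sequenced from 18 libraries of HO15.19 cells, a Rat1 fibroblast line without a functional endogenous myc gene (myc-/-), some of them carrying human MYC introduced by viral infection. There were 6 groups of 3 libraries, all grown in 10% serum. The untransfected groups were myc-/- cells and myc-/- + MYC cells. The other 4 groups were transfected with siRNA at 40 nM for 48 h. A control siRNA went into both kinds of cells (myc-/- siCtrl and myc-/- + MYC siCtrl), and siAHR-2 or siAHR-5, which target the receptor gene Ahr, went into myc-/- + MYC cells. Every group is labelled myc-/-, and all came from 1 parental line. MYC was expressed from an exogenous retroviral promoter and not from its own. Nothing in the labels says whether the 3 libraries of a group came from separate cultures, so p-values measure the spread between these libraries, which may be technical.

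Purine synthesis starts from ribose-5-phosphate, which the PRPS enzymes activate to phosphoribosyl pyrophosphate (PRPP). PPAT commits PRPP to the pathway, and GART, PFAS, PAICS, ADSL and ATIC assemble the ring stepwise to inosine monophosphate (IMP). IMPDH2 and GMPS turn IMP into guanosine monophosphate (GMP), while ADSL acts again on the branch to adenosine monophosphate (AMP). Growing cells draw on the route for RNA, DNA and nucleotide cofactors, and MYC is known as a regulator of several of its genes.

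The 18 libraries had been put on 2 different scales, so groups were compared only within a set. A 6-library set held the groups myc-/- siCtrl and myc-/- + MYC, and a 12-library set held the rest, with myc-/- as the group without MYC. Within either set the transfection label changed together with MYC, and the MYC effect and a transfection effect cannot be told apart. Each set thus pairs an untransfected with a transfected group. The labels were used as given, and whether the transfection labels of groups were exchanged between the sets was not tested. Such an exchange would leave the MYC label of each group as it is and alter only its transfection state. Values are normalized log2 expression, a log2FC is the difference between 2 group means, and a gene was called when it passed 2 cutoffs, a log2FC of 0.585 or more in either direction (1.5-fold) and an adjusted p of no more than 0.01 by limma. "Rose" and "fell" are used only of called genes. Depth is unknown. Levels of different genes cannot be compared, since the values are not per length. In bulk RNA, fewer cells of a type and less RNA per cell cannot be told apart.

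The labels were checked against the targeted genes. Rat Myc RNA was detected in cells labelled myc-/-, at 9.47, 9.29 and 9.16 in myc-/- siCtrl and at 10.90, 10.82 and 10.94 in myc-/-. Rat Myc fell in the MYC groups, with a log2FC of -1.26 in the 6-library set and -2.68 in the 12-library set, and human MYC was not analysed here. Relative to siCtrl, Ahr fell with siAHR-2 (log2FC -1.29) and with siAHR-5 (-1.39). With replicate number as a block the siAHR-2 value stayed at -1.29 but was not called (adjusted p = 0.0126 by limma). With MYC the log2FC of Ahr was 0.52 in the smaller set, not called, and 1.40 in the larger, where it rose. Of 9 fibroblast markers, Vim lay between 18.32 and 19.70 in all libraries and Col1a2 only between 3.64 and 4.13. Markers of other cell types spanned low and intermediate values. Among epithelial markers Epcam lay between 1.22 and 2.42 and Cdh1 between 3.61 and 4.31, but Krt8 lay between 6.02 and 9.05 and Krt19 between 2.42 and 7.73. Among blood cell markers Ptprc lay between 2.84 and 4.65, but Cd68 lay between 6.76 and 7.55 and Cd3e between 6.63 and 9.39. No marker was at 0 in any library, but the value that a gene without reads takes is unknown. Col1a2 was at 3.64 in every MYC library of the 12-library set (SD at most 6.67e-04 within a group). Kdr was at 0.94 in myc-/- + MYC (SD 2.36e-05) and at 5.26 to 5.27 in myc-/- + MYC siCtrl. Such values do not show that RNA of these genes was present, and the marker means include them.

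The purine enzymes did not move as one block with MYC. Gart and Adsl rose in both sets, Impdh2 rose in the 6-library set, and Prps1, Prps2 and Pfas rose in the 12-library set. None of the 10 fell past the cutoffs in either set. In the 6-library set, 3 of 10 genes were called, all higher, where 26.8% of all genes were called, 12.5% were called higher and 14.3% lower. In the 12-library set, 5 of 10 were called, all higher, against 25.5% of all genes called, 10.8% higher and 14.7% lower. The balance over all genes moved with scaling: calls were 1653 higher and 1885 lower in the smaller set and 1425 and 1936 in the larger as deposited, but 1799 and 1684, and 1796 and 1661, after quantile normalization. The median log2FC of the 10 was 0.19 in the 6-library set and 0.60 in the 12-library set, beside -0.0038 and -0.00014 over all genes. After quantile normalization the members' median was 0.38 and 0.75, and after median centring 0.15 and 0.65.

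**Figure D1:**
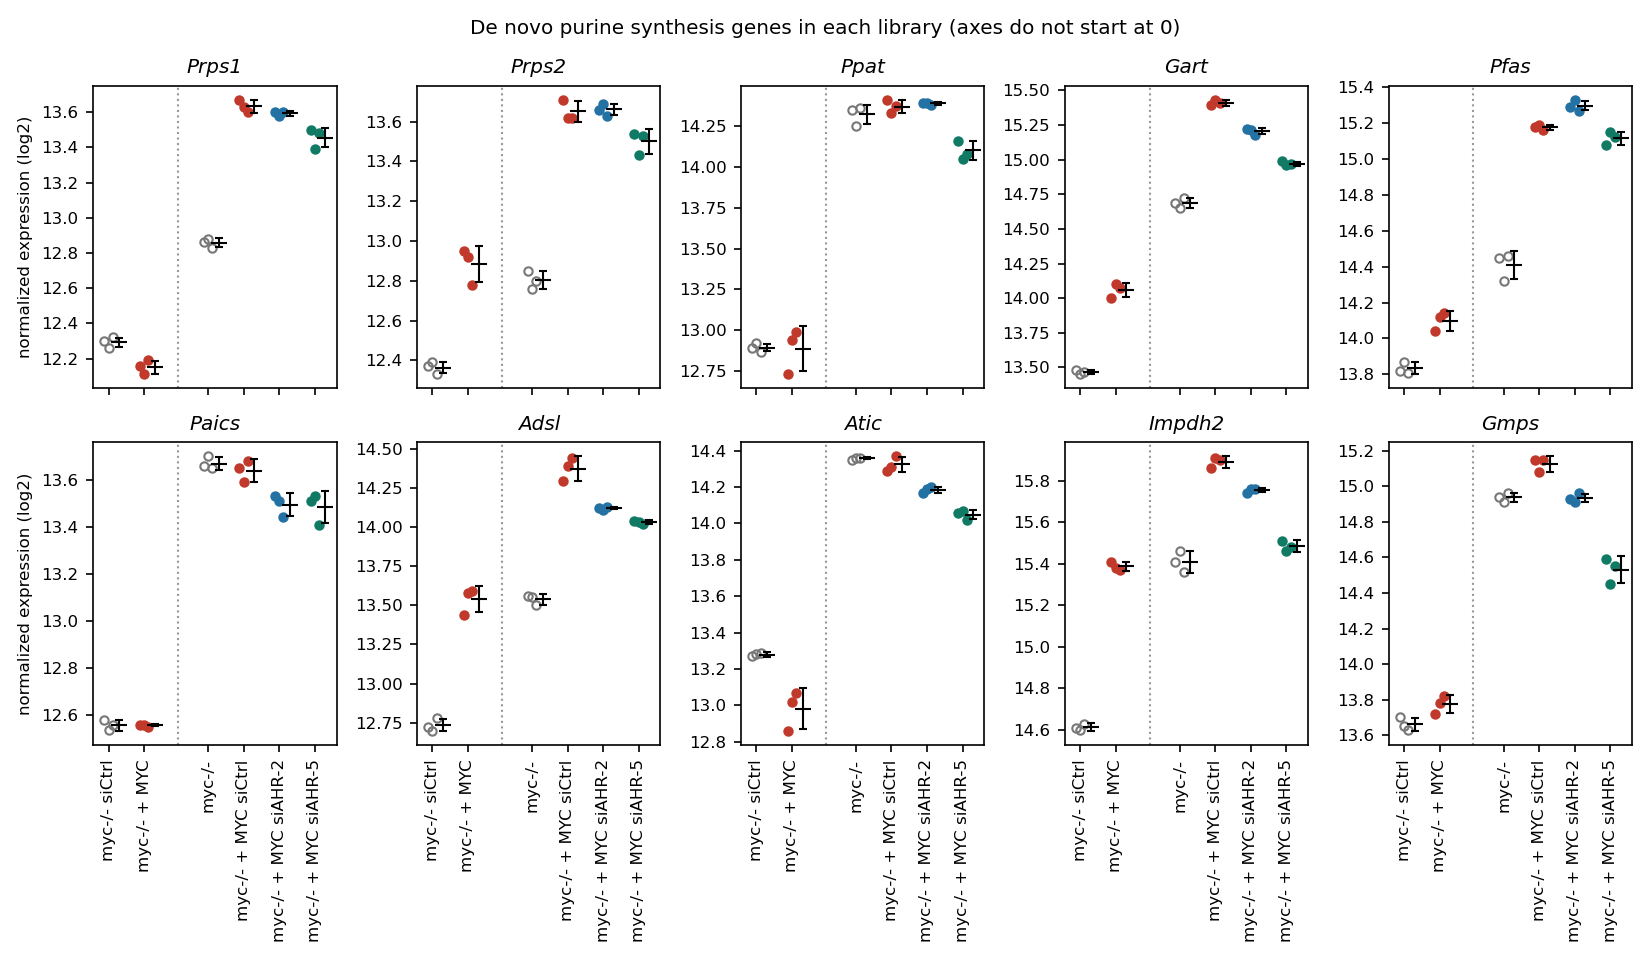
Normalized log2 expression of the 10 purine synthesis genes in each library, 1 panel per gene, with groups on the horizontal axis and a dotted line between the 6-library set and the 12-library set. Points are libraries and black bars are mean ± SD (n = 3); the vertical axes do not start at 0. Gart and Adsl stand higher in the MYC groups of both sets, while Ppat and Paics stand level with their controls.

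Of the 10 genes, Prps1 had the largest difference in MYC effect between the sets. This PRPP synthetase had values of 12.30, 12.26 and 12.32 in myc-/- siCtrl and 12.16, 12.11 and 12.19 in myc-/- + MYC. The MYC libraries were all slightly lower, with a log2FC of -0.14 (SE, the standard error, 0.0352, adjusted p = 0.00328 by limma), short of the fold cutoff. In the 12-library set its values were 12.86, 12.88 and 12.83 in myc-/- and 13.67, 13.63 and 13.60 in myc-/- + MYC siCtrl. There the groups were far apart the other way, and Prps1 rose 1.71-fold, a log2FC of 0.78 (SE 0.0309, adjusted p = 5.67e-06 by limma). The difference between these MYC effects, 12-library set minus 6-library set, was 0.92 (SE 0.0529, adjusted p = 1.86e-09 by limma), and Prps1 was the only one of the 10 called in that test on the deposited values, where 16.5% of all genes were called.

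Prps2, the paralogous synthetase, was higher with MYC in both sets without overlap. Its values were 12.37, 12.39 and 12.33 in myc-/- siCtrl and 12.95, 12.92 and 12.78 in myc-/- + MYC, a log2FC of 0.52 (95% interval 0.42 to 0.62, adjusted p = 8.01e-07 by limma) that was not called. Those of the 12-library set were 12.85, 12.76 and 12.80 against 13.71, 13.62 and 13.62, and Prps2 rose 1.80-fold (log2FC 0.85, SE 0.0401, adjusted p = 1.11e-05 by limma). The sources used here do not say how reads shared by these closely similar paralogs were counted, so a split of reads between Prps1 and Prps2 is uncertain.

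Ppat, which catalyses the committed step, did not differ detectably with MYC in either set. Its values of 12.89, 12.92 and 12.87 in myc-/- siCtrl lay within the range of 12.73, 12.94 and 12.99 in myc-/- + MYC. The log2FC was -0.01 (95% interval -0.13 to 0.12, adjusted p = 0.924 by limma) in the 6-library set. The values in the 12-library set were 14.35, 14.25 and 14.36 against 14.41, 14.33 and 14.37, with a log2FC of 0.05 (95% interval -0.05 to 0.15, adjusted p = 0.354 by limma). Both intervals lie inside the fold cutoff.

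Paics, a bifunctional enzyme of the middle of the pathway, likewise showed no detectable difference with MYC. Its values were 12.58, 12.54 and 12.56 in myc-/- siCtrl and 12.56, 12.56 and 12.55 in myc-/- + MYC, and 13.66, 13.70 and 13.65 in myc-/- and 13.65, 13.59 and 13.68 in myc-/- + MYC siCtrl. The groups overlapped in both sets. The log2FC was 0.00 (95% interval -0.07 to 0.07, adjusted p = 0.984 by limma) in the 6-library set and -0.03 (95% interval -0.11 to 0.05, adjusted p = 0.472 by limma) in the 12-library set.

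Ppat and Paics are also neighbours. In the RefSeq annotation of the rat assembly GRCr8 they lie head to head on chromosome 14, with start sites 25 bases apart on opposite strands. Their promoter windows, 250 bases before to 50 after the start site, share 74 bases. Reads from between the start sites, where the transcripts overlap, cannot be assigned to either gene without strand. Whether the shared stretch bears on the levels of these genes was not tested. The windows are chr14:31569760-31570059 on the plus strand for Ppat and chr14:31569986-31570285 on the minus strand for Paics, each printed 5′ to 3′ with the shared bases in capitals.
Ppat: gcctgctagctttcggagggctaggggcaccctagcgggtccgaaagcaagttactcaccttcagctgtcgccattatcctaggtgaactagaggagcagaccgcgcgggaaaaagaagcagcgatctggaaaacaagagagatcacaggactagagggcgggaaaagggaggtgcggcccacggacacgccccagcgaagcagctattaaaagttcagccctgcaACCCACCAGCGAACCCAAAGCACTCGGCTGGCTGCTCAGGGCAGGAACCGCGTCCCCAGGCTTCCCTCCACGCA
Paics: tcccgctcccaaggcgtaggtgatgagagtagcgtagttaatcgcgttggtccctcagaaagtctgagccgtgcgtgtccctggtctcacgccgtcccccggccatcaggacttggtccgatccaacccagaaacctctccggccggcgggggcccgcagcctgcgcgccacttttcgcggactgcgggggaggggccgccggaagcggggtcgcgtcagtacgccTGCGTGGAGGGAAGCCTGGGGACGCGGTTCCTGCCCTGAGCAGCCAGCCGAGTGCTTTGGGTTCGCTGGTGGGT

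Gart, a trifunctional enzyme that carries out several ring-building steps, rose in both sets. Its values were 13.48, 13.45 and 13.47 in myc-/- siCtrl and 14.00, 14.10 and 14.07 in myc-/- + MYC, a fold of 1.51 (log2FC 0.59, SE 0.0323, adjusted p = 1.50e-08 by limma). That value sits just over the fold cutoff and dropped under it, to 0.57 without myc-/- + MYC replicate 2 and to 0.55 after median centring. Across the 12-library set the values went from 14.69, 14.65 and 14.72 to 15.39, 15.43 and 15.41, a fold of 1.65 (log2FC 0.73, SE 0.0293, adjusted p = 5.94e-06 by limma).

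Adsl, adenylosuccinate lyase, acts both on the way to IMP and on the branch to AMP, and it rose by nearly the same amount in each set. Its values were 12.72, 12.70 and 12.78 in myc-/- siCtrl and 13.44, 13.58 and 13.59 in myc-/- + MYC, a fold of 1.75 (log2FC 0.80, SE 0.0429, adjusted p = 1.26e-08 by limma). Those of the 12-library set were 13.56, 13.55 and 13.50 against 14.29, 14.39 and 14.44, a fold of 1.78 (log2FC 0.84, SE 0.0462, adjusted p = 2.03e-05 by limma). The MYC effects differed by 0.03 between the sets, with a 95% interval from -0.12 to 0.18.

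Pfas, the amidotransferase between the GART steps, rose in the 12-library set, from 14.45, 14.32 and 14.46 in myc-/- to 15.18, 15.19 and 15.16 in myc-/- + MYC siCtrl (log2FC 0.77, SE 0.0444, adjusted p = 2.45e-05 by limma). In the 6-library set its values of 14.04, 14.12 and 14.14 in myc-/- + MYC were also all above the 13.82, 13.87 and 13.81 of myc-/- siCtrl. That log2FC of 0.26 (SE 0.0344, adjusted p = 2.80e-05 by limma) was not called. Its MYC effect was larger in the 12-library set by 0.50 (SE 0.0604, adjusted p = 5.44e-06 by limma), below the fold cutoff, and by 0.59 after median centring, which passed it.

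Atic, the bifunctional enzyme that closes the ring to IMP, was the one ring-building gene with lower values in the 6-library set. Its values were 13.27, 13.28 and 13.29 in myc-/- siCtrl and 12.86, 13.02 and 13.07 in myc-/- + MYC, a log2FC of -0.30 (95% interval -0.41 to -0.19, adjusted p = 1.82e-04 by limma) that was not called. In the 12-library set the groups overlapped, at 14.35, 14.36 and 14.36 against 14.29, 14.31 and 14.37, with a log2FC of -0.03 (95% interval -0.10 to 0.04, adjusted p = 0.346 by limma). The ring-building enzymes therefore split within each set, with Gart and Adsl called and Paics and Atic not.

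On the branch to GMP, Impdh2, the rate-limiting enzyme of guanine nucleotide synthesis, rose in the 6-library set from 14.61, 14.60 and 14.63 to 15.41, 15.38 and 15.37, a fold of 1.71 (log2FC 0.77, SE 0.0269, adjusted p = 3.62e-10 by limma). It was again higher in every MYC library of the 12-library set, at 15.86, 15.91 and 15.90 against 15.41, 15.46 and 15.36, but the log2FC of 0.48 (95% interval 0.39 to 0.57, adjusted p = 7.58e-05 by limma) was not called. It was the only one of the 10 with a negative difference between the MYC effects, 12-library set minus 6-library set, at an adjusted p below 0.05. That difference was -0.29 (adjusted p = 1.49e-04 by limma). Gmps, which aminates the product of IMPDH to GMP, had small differences without overlap: 13.70, 13.65 and 13.63 against 13.72, 13.78 and 13.82 in the 6-library set, and 14.94, 14.91 and 14.96 against 15.15, 15.08 and 15.15 in the 12-library set. Its log2FC was 0.11 (adjusted p = 0.0116 by limma) and 0.19 (adjusted p = 0.00250 by limma), neither of them called.

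**Figure D2:**
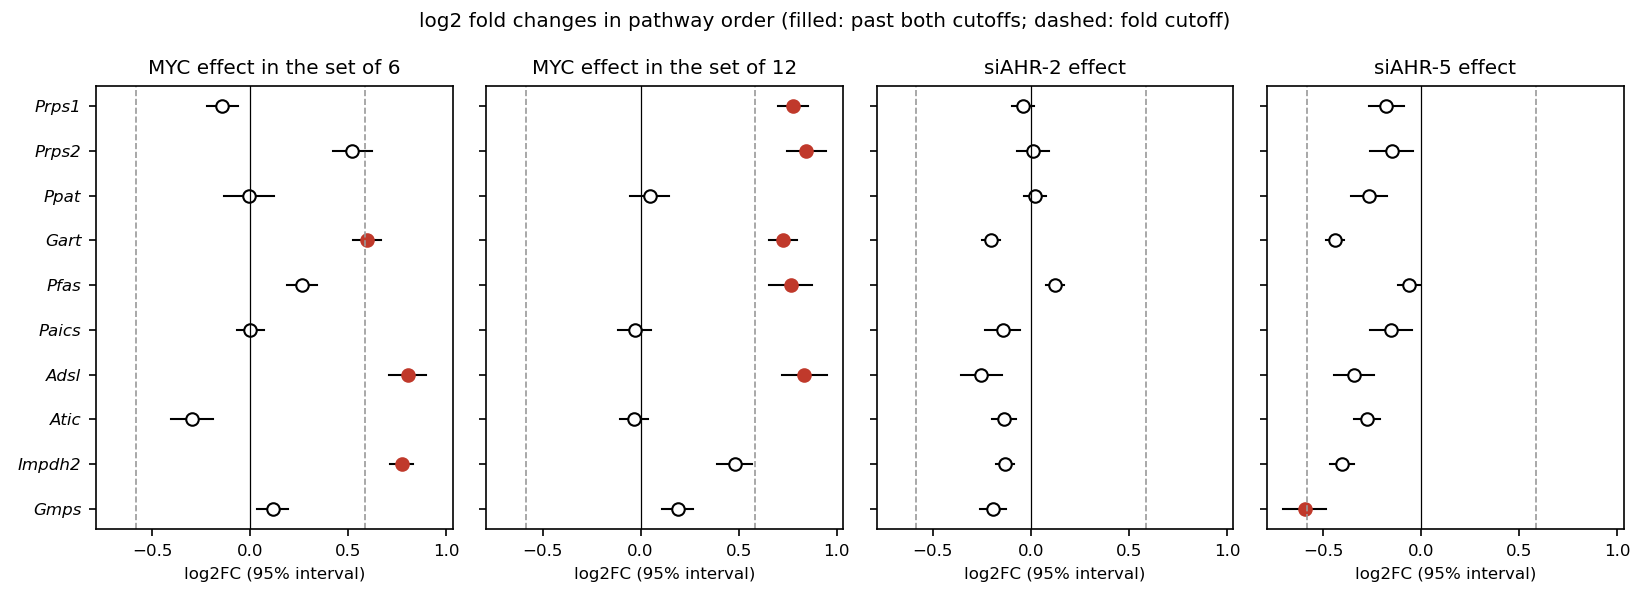
Log2FC of the 10 genes in pathway order in 4 comparisons, with 95% intervals; filled red points passed both cutoffs and dashed lines mark the fold cutoff. Called genes lie to the right in the MYC panels (3 in the 6-library set, 5 in the 12-library set), and Gmps is the 1 called gene in the siAHR-5 panel, on the left.

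Counting only whether the libraries of the compared groups overlapped, 8 of 10 genes separated in the 6-library set, where 78.8% of all genes did: 6 higher (37.9% of all genes) and 2 lower (40.9%). In the 12-library set, 7 of 10 separated, all higher, against 70.5% of all genes in either direction and 33.8% higher. The share that separated in either direction was thus close to that of the table as a whole, while the share that separated higher was larger in both sets. Prps1 and Atic were the lower pair of the 6-library set. In the test of the difference between the MYC effects, 6 of 10 had an adjusted p below 0.05 by limma (Prps1, Prps2, Gart, Pfas, Atic and Impdh2), against 54.9% of all genes. At that adjusted p alone, with no fold cutoff, 8 of 10 differed with MYC in the smaller set and 7 of 10 in the larger, against 76.2% and 64.7% of all genes.

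Because Gart and Adsl rose together and Atic did not, their promoter windows were searched for the E-box CACGTG, the core sequence bound by MYC with its partner MAX, and for 3 sequences that differ from it by 1 base (non-canonical E-boxes), all on both strands. The windows are again 250 bases before to 50 after the start site in RefSeq GRCr8, and all 10 genes had one. CACGTG was in 6.42% of 33469 windows and in that of 1 of the 10 genes, Atic, where its first base lay at -50 and at +17 from the start site. CACGCG was in 8.50% of windows and in those of Adsl (first base at +30, on the opposite strand) and Impdh2 (at -99 and -20). CAAGTG was in 14.1% of windows and in those of Gart (at -176) and Prps1 (at -240, on the opposite strand). CACCTG was in 18.8% of windows and in none of the 10. No matches overlapped. A match is a description of these letters and no evidence of binding, and its absence says nothing of sequence outside the window. The windows of Atic (chr9:80614061-80614360, plus strand), Gart (chr11:44377037-44377336, minus strand) and Adsl (chr7:114359190-114359489, plus strand) are printed 5′ to 3′ with the matches in capitals. They set the gene with CACGTG and no rise beside the genes that rose in both sets.
Atic: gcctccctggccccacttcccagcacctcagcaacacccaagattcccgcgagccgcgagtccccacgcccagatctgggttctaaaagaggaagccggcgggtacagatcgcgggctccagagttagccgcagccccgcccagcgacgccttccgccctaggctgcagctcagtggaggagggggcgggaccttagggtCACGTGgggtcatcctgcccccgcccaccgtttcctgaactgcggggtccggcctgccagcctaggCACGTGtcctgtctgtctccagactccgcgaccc
Gart: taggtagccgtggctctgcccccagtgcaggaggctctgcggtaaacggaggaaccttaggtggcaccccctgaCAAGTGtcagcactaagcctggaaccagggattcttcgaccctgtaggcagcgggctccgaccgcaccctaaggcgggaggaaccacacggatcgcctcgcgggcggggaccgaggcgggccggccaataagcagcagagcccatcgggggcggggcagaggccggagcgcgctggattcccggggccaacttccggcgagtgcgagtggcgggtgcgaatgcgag
Adsl: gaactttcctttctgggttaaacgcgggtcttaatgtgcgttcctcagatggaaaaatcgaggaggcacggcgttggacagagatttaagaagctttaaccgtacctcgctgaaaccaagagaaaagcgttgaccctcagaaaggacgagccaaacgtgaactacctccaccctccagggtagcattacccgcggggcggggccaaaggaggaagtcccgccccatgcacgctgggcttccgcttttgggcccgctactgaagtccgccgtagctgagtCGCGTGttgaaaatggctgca

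Whether silencing of the aryl hydrocarbon receptor changed the pathway in MYC-expressing cells was measured with siAHR-2 and siAHR-5, each against the same 3 siCtrl libraries. With siAHR-5 Gmps fell, and the other 9 genes were lower in all libraries without reaching the cutoffs. With siAHR-2 none of the 10 was called. Over all genes, siAHR-2 called 0.470% and siAHR-5 2.33%, and 0.849% of all genes were called lower with siAHR-5. The siAHR-5 calls over all genes were 195 higher and 112 lower as deposited, 127 and 126 after quantile normalization, and 140 and 165 after centring each library on its median. For siAHR-2 they were 21 and 41 as deposited and 15 and 53 after centring.

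Gmps had values of 15.15, 15.08 and 15.15 with siCtrl, 14.93, 14.91 and 14.96 with siAHR-2, and 14.59, 14.45 and 14.55 with siAHR-5. The 3 groups did not overlap. With siAHR-5 it fell by 0.59 on the log2 scale (SE 0.0442, 95% interval -0.70 to -0.48, adjusted p = 5.80e-04 by limma), a change of -33.8%. This call sat at the fold cutoff: the log2FC was -0.55 after quantile normalization and -0.55 without siAHR-5 replicate 2, and -0.58 without siCtrl replicate 1 or without siCtrl replicate 3, none of them called. With siAHR-2 the log2FC was -0.19 (adjusted p = 0.00528 by limma). In the direct comparison siAHR-5 was below siAHR-2 by a log2FC of -0.40 (SE 0.0397, adjusted p = 0.00105 by limma), which was not called.

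Gart followed the same order, at 15.39, 15.43 and 15.41 with siCtrl, 15.22, 15.21 and 15.18 with siAHR-2, and 14.99, 14.96 and 14.97 with siAHR-5. It differed from siCtrl by -0.20 on the log2 scale with siAHR-2 (adjusted p = 0.00142 by limma) and -0.44 with siAHR-5 (adjusted p = 2.06e-04 by limma). Impdh2 was at 15.74, 15.76 and 15.76 with siAHR-2 and 15.51, 15.46 and 15.48 with siAHR-5, with a log2FC of -0.13 (adjusted p = 0.00498 by limma) and -0.40 (adjusted p = 3.62e-04 by limma). For both genes the 3 groups were separate, and siAHR-5 lay below siAHR-2 by -0.24 for Gart and -0.27 for Impdh2.

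Adsl was at 14.12, 14.11 and 14.13 with siAHR-2 and 14.04, 14.03 and 14.02 with siAHR-5, below all siCtrl libraries, with a log2FC of -0.25 (adjusted p = 0.00867 by limma) and -0.34 (adjusted p = 0.00227 by limma). Atic, which had not separated with MYC in this set, was at 14.17, 14.19 and 14.20 with siAHR-2 and 14.06, 14.07 and 14.02 with siAHR-5, a log2FC of -0.14 (adjusted p = 0.0109 by limma) and -0.28 (adjusted p = 0.00114 by limma). Paics was the one gene whose values with the siRNAs overlapped each other, at 13.53, 13.51 and 13.44 with siAHR-2 and 13.51, 13.53 and 13.41 with siAHR-5. Its log2FC from siCtrl was -0.14 (adjusted p = 0.0324 by limma) and -0.16 (adjusted p = 0.0365 by limma), and the siRNAs differed by -0.01 (95% interval -0.12 to 0.10).

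Ppat, Prps1 and Prps2 overlapped siCtrl with siAHR-2 and lay below it with siAHR-5. Ppat was at 14.39, 14.39 and 14.38 with siAHR-2 and 14.16, 14.05 and 14.08 with siAHR-5, a log2FC of 0.02 (adjusted p = 0.539 by limma) and -0.27 (adjusted p = 0.00334 by limma), and the direct difference between the siRNAs was -0.29 (SE 0.0300, adjusted p = 0.00125 by limma). Prps1 was at 13.60, 13.58 and 13.60 with siAHR-2 and 13.50, 13.39 and 13.48 with siAHR-5, a log2FC of -0.04 and -0.18. Prps2 was at 13.66, 13.69 and 13.63 with siAHR-2 and 13.54, 13.43 and 13.53 with siAHR-5, a log2FC of 0.01 and -0.15. For both synthetases the siAHR-5 difference had an adjusted p below 0.05 by limma (0.0128 and 0.0420).

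Pfas was the one gene that lay wholly above siCtrl with siAHR-2, at 15.29, 15.33 and 15.27, with a log2FC of 0.12 (adjusted p = 0.00652 by limma). With siAHR-5 it was at 15.08, 15.15 and 15.12, a log2FC of -0.06 (adjusted p = 0.0872 by limma). The log2FC of Pfas thus had opposite signs with siAHR-2 and siAHR-5, but the siAHR-5 difference from siCtrl did not reach an adjusted p below 0.05 by limma. The direct difference between the siRNAs was -0.18 (adjusted p = 0.00252 by limma).

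By library overlap, siAHR-2 left 6 of 10 genes wholly below siCtrl and 1 wholly above, where 21.8% and 21.5% of all genes were. With siAHR-5 all 10 lay wholly below, against 22.2% of all genes, and all 10 kept a negative log2FC after quantile normalization and after median centring. For siAHR-2, limma called 0 of 10, with 7 at an unadjusted p below 0.05 and the same number at an adjusted p below 0.05, where 29.3% of all genes had one. For siAHR-5, 9 of 10 had an adjusted p below 0.05, all lower, against 39.2% of all genes in either direction and 18.1% lower. The median log2FC of the 10 was -0.14 with siAHR-2 and -0.27 with siAHR-5, beside 2.21e-06 and 0.01 over all genes. For siAHR-2 the members' median was -0.08 after quantile normalization. Set beside the myc-/- libraries of the same set, with no test, the siAHR-5 libraries were all higher for Prps1, Prps2, Gart, Pfas and Adsl. They were all lower for Ppat, Paics, Atic and Gmps, while for Impdh2 the lowest siAHR-5 value and the highest myc-/- value were both 15.46. The share of all genes that separated between these groups was not computed. The groups differ in MYC, transfection and siRNA together, so this is not read as a result about the 10 genes. In the direct comparison of the siRNAs limma called 0 of 10, where 2.18% of all genes were called, and 9 had an unadjusted p below 0.05, all lower with siAHR-5; the same number had an adjusted p below 0.05, against 39.1% of all genes.

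Genes around the pathway moved in their own ways. Of 6 genes that supply one-carbon units as formyl-tetrahydrofolate, 2 rose in both sets and none fell, where 12.5% and 10.8% of all genes were called higher. Mthfd1, the cytosolic trifunctional folate enzyme, rose from 13.41, 13.39 and 13.38 to 14.22, 14.34 and 14.37 in the 6-library set and from 14.55, 14.54 and 14.57 to 15.83, 15.88 and 15.87 in the 12-library set, a log2FC of 0.92 (SE 0.0381) and 1.31 (SE 0.0249). Shmt1, cytosolic serine hydroxymethyltransferase, rose by a log2FC of 0.72 and 0.78. Mthfd1l, the mitochondrial relative of Mthfd1, named after its values were seen, lay the other way in both sets without being called, at a log2FC of -0.47 and -0.51. The median of the 6 was 0.49 and 0.18. None of the 6 was called with either siRNA. Mthfd1 had a log2FC of -0.13 with siAHR-2 and -0.43 with siAHR-5. Shmt2, named after its values were seen, had one of 0.45 with siAHR-2 and -0.24 with siAHR-5. The median of the 6 was 0.03 with siAHR-2 and -0.16 with siAHR-5.

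The pentose phosphate pathway makes ribose-5-phosphate. Of the 6 of its genes described, 2 fell in the 6-library set and 3 in the 12-library set, where 14.3% and 14.7% of all genes were called lower, and none rose. The median log2FC was -0.31 and -0.52. The list was not uniform: Tkt, transketolase, named with Pgls after their values were seen, had a log2FC of 0.49 and 0.36, and Pgls had one of 0.52 in the 6-library set, none of them called. Rpia, which isomerizes ribulose-5-phosphate to ribose-5-phosphate, fell in both (log2FC -0.95, SE 0.0342, and -1.0, SE 0.0623). Rpia also fell with siAHR-5, from 12.69, 12.75 and 12.80 to 11.95, 11.97 and 11.85, by 0.82 on the log2 scale, while with siAHR-2 it was at 12.96, 12.85 and 12.82.

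Of 4 further synthesis genes in the table, 1 rose in the 6-library set and 1 fell in the 12-library set. Over all genes, 12.5% were called higher in the 6-library set and 14.7% lower in the 12-library set. The called genes of this list are named here after their values were seen. Prpsap1, a PRPP synthetase-associated protein, had a log2FC of 0.81 and 0.46, and Impdh1, the IMPDH2 paralog, of -0.35 and -0.77. Impdh1 and Impdh2 thus had log2FCs of opposite sign in both sets, subject to how reads shared by these paralogs were counted. The median of the 4 was -0.12 and -0.05, and none was called with either siRNA.

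Of 7 genes of salvage and uptake, 1 rose and 1 fell in the 6-library set, and 2 rose and 1 fell in the 12-library set (medians 0.22 and 0.27). Over all genes 26.8% and 25.5% were called, and the shares of this list and of the breakdown and kinase lists are to be read against those. Slc29a2, a nucleoside transporter, rose by a log2FC of 0.72 in both sets. Slc29a1, its relative, had a log2FC of 0.22 in the 6-library set, rose by 1.09 in the 12-library set, and rose with siAHR-5 from 11.22, 11.29 and 11.23 to 12.42, 12.29 and 12.35 (log2FC 1.10, SE 0.0413, adjusted p = 1.83e-04 by limma). Hprt1, which salvages hypoxanthine and guanine with PRPP, had a log2FC of -0.58 in the 6-library set, just short of the cutoff, and passed it after quantile normalization (-0.59), after median centring (-0.62) and without myc-/- siCtrl replicate 2 (-0.61), myc-/- + MYC replicate 1 (-0.59) or myc-/- + MYC replicate 2 (-0.59). Hprt1 fell by 0.60 in the 12-library set, a call lost after quantile normalization (-0.54) and after median centring (-0.56) and without myc-/- replicate 2 (-0.53), myc-/- + MYC siCtrl replicate 1 (-0.58) or myc-/- + MYC siCtrl replicate 2 (-0.56). With siAHR-5 Hprt1 fell from 12.51, 12.48 and 12.66 to 11.87, 11.75 and 11.66 (log2FC -0.79, SE 0.0708, adjusted p = 8.87e-04 by limma), and with siAHR-2 it overlapped siCtrl at a log2FC of -0.11. With siAHR-5, 1 gene of the 7 rose and 1 fell, where 2.33% of all genes were called and 0.849% were called lower. With siAHR-2 none was called, where 0.470% of all genes were.

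Of 13 genes of purine breakdown and interconversion, 1 rose and 1 fell in the 6-library set, and 2 rose and 1 fell in the 12-library set, with medians of 0.03 and 0.02. The one that rose in both sets was Gmpr, GMP reductase, which returns GMP to IMP and so runs against IMPDH2 and GMPS. It went from 6.55, 6.82 and 6.64 to 10.52, 10.24 and 10.20 in the 6-library set (log2FC 3.65, SE 0.0952, adjusted p = 3.64e-11 by limma) and from 8.0, 8.33 and 8.36 to 10.43, 10.55 and 10.55 in the 12-library set (log2FC 2.28, SE 0.111, adjusted p = 1.22e-05 by limma). No gene of this list was called with either siRNA. Of 10 nucleotide kinases and ribonucleotide reductase subunits, 1 fell in the 6-library set, and 2 rose and 2 fell in the 12-library set (medians -0.16 and -0.07). Ak4, a mitochondrial adenylate kinase, had a log2FC of 0.25 in the 6-library set, rose by 3.14 in the 12-library set and fell by 0.66 with siAHR-5. Ak1, the cytosolic adenylate kinase, had a log2FC of -0.21 and fell by 0.95, and it rose by 0.64 with siAHR-5. That call was lost after quantile normalization (0.47) and after median centring (0.58). It was also lost without any 1 of the 6 libraries compared other than siCtrl replicate 3 (0.56 to 0.72 over the 6 fits). With replicate number as a block the value stayed at 0.64 but was not called (adjusted p = 0.0102 by limma). The other genes called in 1 set only were named after their values were seen. In the smaller set these were Rpe (-0.78), Dck (-1.19), Ampd3 (-2.50) and Rrm1 (-0.71), which encode a pentose phosphate epimerase, deoxycytidine kinase, an AMP deaminase and the large ribonucleotide reductase subunit. In the larger set they were Pgls (-0.74) and Taldo1 (-0.61) of the pentose phosphate pathway, Ampd2 (0.78) and xanthine dehydrogenase Xdh (-0.93), and Ak3 (-1.78) and Rrm2 (1.17).

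**Figure D3:**
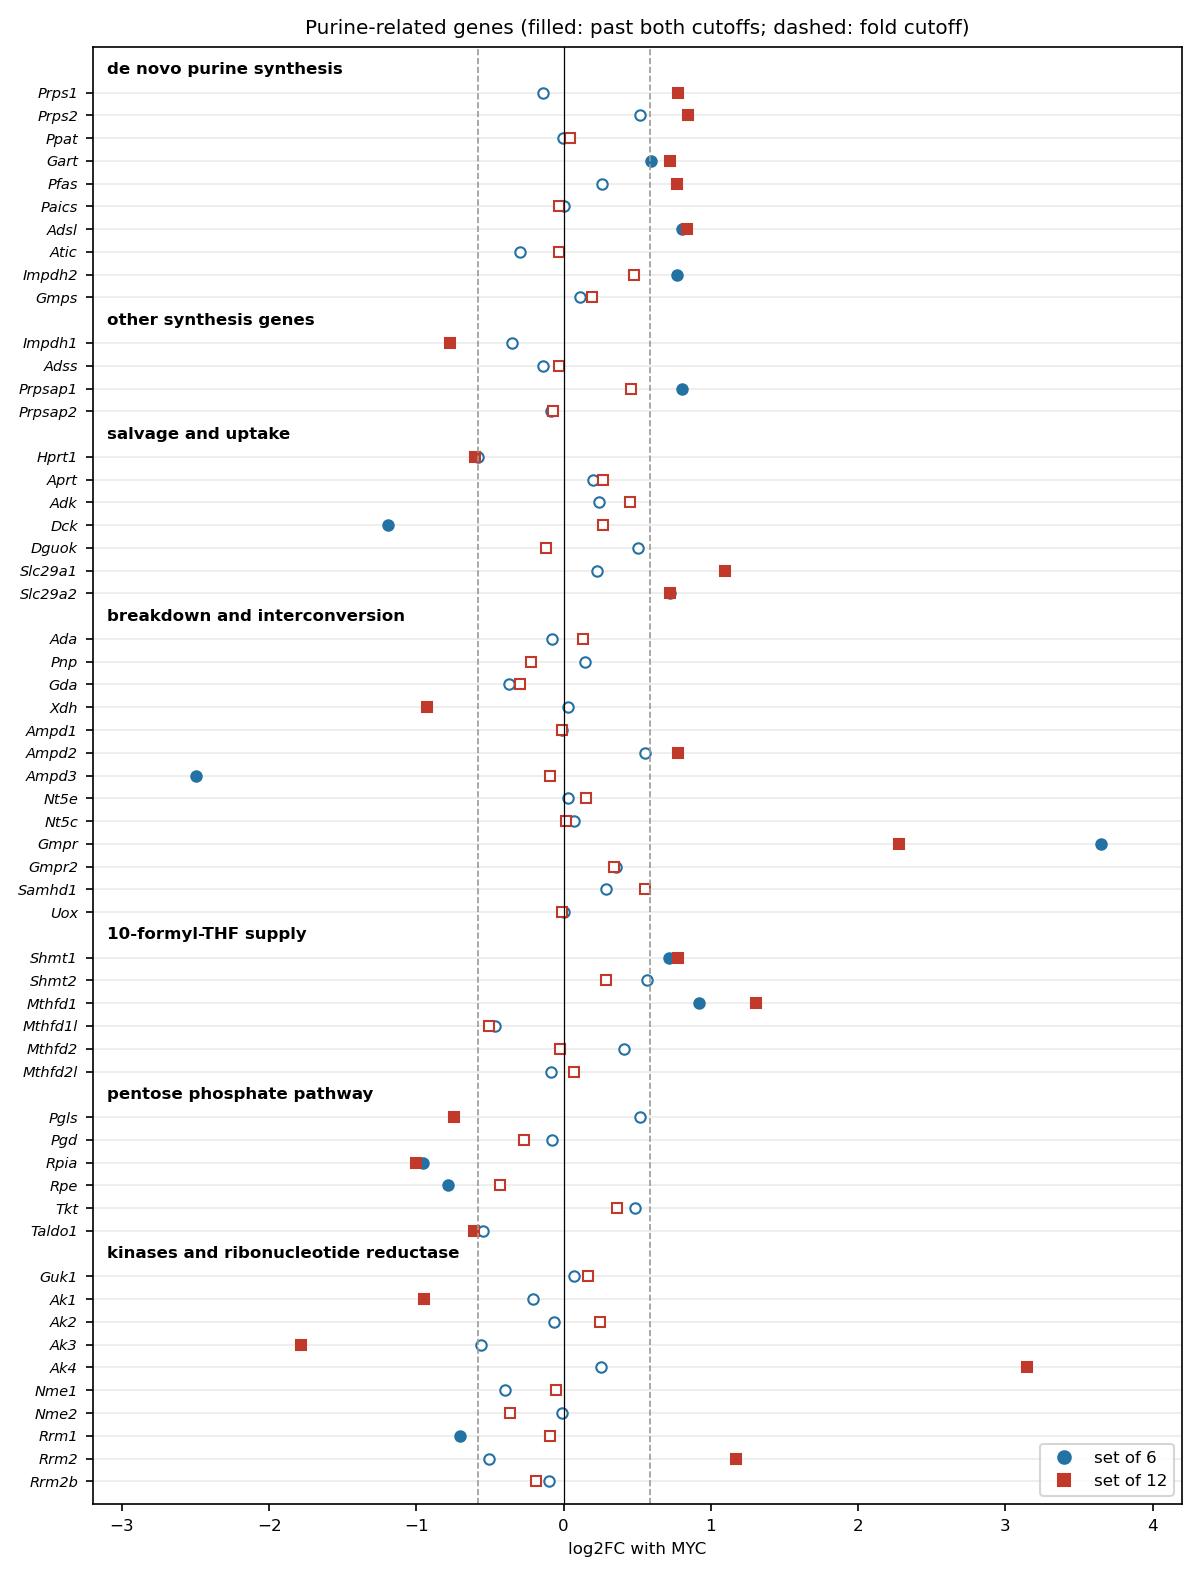
Log2FC of the MYC comparison for each gene of the purine synthesis list and of the surrounding lists, 1 row per gene; blue circles are the 6-library set, red squares the 12-library set, and filled symbols passed both cutoffs. Called pentose phosphate genes lie on the negative side and called formyl supply genes on the positive side in both sets, and Gmpr (3.65 and 2.28) lies farthest to the right among genes called in both.

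Markers of fibroblasts moved with MYC as well. Of 9, 1 rose and 5 fell in the 6-library set, where 12.5% of all genes were called higher and 14.3% lower, and 5 fell in the 12-library set (14.7% of all genes). Those that fell were Col1a1 (log2FC -1.73 and -5.95), Fn1 (-1.76 and -1.80), Pdgfrb (-1.72 and -3.08), Thy1 (-1.15 and -2.20) and Col5a1 (-0.78 and -1.34). Col3a1, named after its values were seen, was the one that rose (1.30). The mean log2 level of the 9 in a library lay between 15.21 and 15.23 in myc-/- siCtrl and between 14.58 and 14.62 in myc-/- + MYC, and between 15.67 and 15.74 in myc-/- and between 14.01 and 14.04 in myc-/- + MYC siCtrl. Of 4 epithelial markers Krt8 rose (1.70 and 1.17), while Krt19 had a log2FC of -0.27 in the smaller set and Epcam and Cdh1 lay near 0 there (these markers, and Cd68, Ptprc and Vim, were named after their values were seen). Their mean went from 4.8 to 4.85 without MYC to 5.14 to 5.25 with it in the smaller set and from 4.03 to 4.06 without it to 4.28 to 4.38 with it in the larger. Of 3 blood cell markers Cd3e fell (-2.09 and -1.13) and Cd68 lay the other way without being called (0.35 and 0.27), with means of 6.98 to 7.08 against 6.33 to 6.43 and of 5.85 to 5.94 against 5.53 to 5.66. Of 3 endothelial markers none was called, with means of 4.84 to 4.91 against 4.74 to 4.75 and of 5.78 to 5.89 against 5.71 to 5.75. With siAHR-5, Thy1 rose by 0.75 and Pdgfrb had a log2FC of 0.55 that was not called. Col1a1 (0.22) also lay wholly above siCtrl, while Vim (-0.48) and Fn1 (-0.10) lay wholly below it, none of them called. The median of the 9 fibroblast markers with siAHR-5 was 0.02. With siAHR-2 no marker was called. The part of these shifts in the values of the purine genes was not tested.

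The 10 genes also differed in how closely each followed the others over the 18 libraries, with each gene centred on its own mean within each set. Pearson's r with the mean of the other 9 was 0.97 for Gart, 0.89 for Adsl, 0.86 for Prps2, 0.82 for Impdh2, 0.78 for Pfas and 0.63 for Prps1. It was 0.39 for Gmps, 0.30 for Ppat, -0.20 for Paics and -0.36 for Atic. The 5 genes outside the list whose pattern was most like the mean of the 10 were Cct8 (r = 0.989), Cul2 (0.988), Cct6a (0.983), Krr1 (0.979) and Hspa14 (0.978). Cct8 and Cct6a encode subunits of the cytosolic chaperonin, Cul2 a cullin scaffold of ubiquitin ligases, Krr1 a ribosome assembly factor and Hspa14 a heat shock protein of the ribosome. Cct8 had a log2FC of 0.41 in the 6-library set, 0.61 in the 12-library set, -0.12 with siAHR-2 and -0.37 with siAHR-5. These correlations are descriptions over 18 libraries that share 6 groups and carry no test.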

How the data were processed

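Poly-A RNA of 18 libraries in 6 groups of 3 was sequenced. Groups and replicate numbers were taken from the sample labels, and 0 value columns were left without a sample. Per the submitters' processing notes and methods, the authors mapped the reads to rn6 (HISAT2 2.1.0), dropped genes under 10 reads in total, used DESeq2 for normalization and deposited 1 table of log2 values for 13188 genes. The table is labelled log CPM, but off the log scale the values add up to 86.3 to 94.0 (6-library set) and 136 to 161 (12-library set) times what CPM values would, so the transformation and the depth, and the precision it gives, are unknown and fold changes of low genes may be understated. The read counter and strand setting are not given in the sources used here.

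Comparisons were fitted on the deposited values of all genes in R 4.3.3 by limma 3.58.1, with lmFit followed by eBayes (trend on), with only the compared groups in each fit and Benjamini-Hochberg adjustment over 13188 genes. The difference between the MYC effects was fitted over the 12 libraries of 4 groups. On simulated data with 200 changed genes, at a log2FC of 1, 194 (6-library set) and 179 (MYC comparison of the 12-library set) were recovered, with 0 false calls among 12988. The simulated noise was independent between libraries and as small as the observed spreads, so an unchanged gene could hardly reach the fold cutoff. Shifts shared by libraries were left out, so the 0 says little about false calls in the real data.

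Genes named are the 10 enzymes, genes of the surrounding lists past the cutoffs in the same direction in both MYC comparisons or with either siRNA, the 5 most similar genes, and Myc and Ahr. Other genes were named after their values were seen. The members, lists and markers were chosen with earlier results of these data known. Adss1, Prps1l1, Nt5c2, Krt18 and Cd79a were not analysed here, and 1 further gene is not reported here. Promoter windows came from RefSeq, assembly GRCr8. Alternatives were an adjusted p below 0.05 without a fold cutoff, a joint fit of all libraries, no variance trend, quantile normalization, median centring, a minimum mean of 1, a pseudocount of 1, a replicate block and leaving out each library. Figures used matplotlib 3.10.9 in Python 3.11.15.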

Additional observations from a re-analysis of the deposited data

Results flagged for a closer look

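The MYC effect differed between the sets of libraries past both cutoffs in limma's test of the difference, 12-library set minus 6-library set, for 20 of the 77 genes in all lists, where 16.5% of all genes were called. Of the 10 enzymes this was Prps1 (0.92). Of the surrounding lists it was Slc29a1 (0.87), Ak4 (2.89), Ak1 (-0.74), Gmpr (-1.37), Ampd3 (2.40), Rrm2 (1.68), Dck (1.46), Rrm1 (0.61), Dguok (-0.63), Xdh (-0.96), Ak3 (-1.22) and Pgls (-1.26). Of the markers and label checks it was Col1a1 (-4.22), Col3a1 (-1.39), Pdgfrb (-1.36), Thy1 (-1.05), Cd3e (0.96), Myc (-1.42) and Ahr (0.88). The set and the transfection label cannot be told apart as sources of these differences. The difference for Ak1 was -0.47 after quantile normalization and no longer passed the cutoffs.

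The siRNAs against the aryl hydrocarbon receptor differed from each other past both cutoffs for 6 of the 77 genes, where 2.18% of all genes were called. The siAHR-5 libraries were lower than the siAHR-2 libraries for Hprt1 (log2FC -0.68), Rpia (-0.95) and Shmt2 (-0.69), and higher for Slc29a1 (0.65), Thy1 (0.67) and Pdgfrb (0.64). Ahr itself differed by -0.11 between the siRNAs (limma adjusted p = 0.211).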

How the results depend on the processing

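Fitting all 18 libraries together, dropping the variance trend, a minimum mean of 1 and a pseudocount of 1 left the call and direction of all 60 values of the 10 enzymes (10 genes in 6 comparisons) as they were. Without the fold cutoff, at an adjusted p below 0.05, the called enzymes numbered 8 in the 6-library set, 7 in the 12-library set, 7 with siAHR-2, 9 with siAHR-5, 9 between the siRNAs and 6 for the difference between the MYC effects. Quantile normalization left 0 called with siAHR-5, and it brought Prps2 in the 6-library set (0.60) and Impdh2 in the 12-library set (0.66) past the cutoffs. Median centring gave 2 for the difference, adding Pfas (0.59), and took Gart in the 6-library set to 0.55. Signs turned only for values near 0. After quantile normalization these were Ppat in the 6-library set (0.0741), Atic (0.0823) and Paics (0.0355) in the 12-library set, and the difference for Adsl (-0.0191). After median centring they were Paics in the 6-library set (-0.0419), Atic (0.0092) and Paics (0.013) in the 12-library set, Ppat (-0.0096) and Prps2 (-0.0208) with siAHR-2, and the difference for Paics (0.0549).

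Leaving out each library in turn gave 2 to 3 called enzymes in the 6-library set, 5 to 5 in the 12-library set, 0 to 0 with siAHR-2, 0 to 1 with siAHR-5, 0 to 0 between the siRNAs and 1 to 1 for the difference. Signs turned for Paics (-0.0106 to 0.0131) and Ppat (-0.0603 to 0.0711) in the 6-library set, Prps2 with siAHR-2 (-0.0068 to 0.0416), Paics between the siRNAs (-0.0378 to 0.0281), and the differences for Adsl (-0.0174 to 0.0738) and Ppat (-0.0251 to 0.11). The cause of these changes was not tested.

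Replicate numbers are shared between groups, and whether they pair the libraries is not settled. No comparison had all 3 same-number correlations above 0.1. In the siAHR-5 comparison they lay between -0.06 and 0.22, and 2 of 3 libraries correlated best with their own number. That held for 1 of 3 with siAHR-2 and for 0 of 3 in each MYC comparison. With 3 libraries per group these correlations cannot exclude a pairing. With the replicate block, the called enzymes stayed at 3, 5, 0, 1, 0 and 1. Over all genes the block moved the calls with siAHR-2 from 62 to 0 and with siAHR-5 from 307 to 271, and Ahr with siAHR-2 had a limma adjusted p of 0.0126 and Ak1 with siAHR-5 one of 0.0102, neither of them called.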
